A study of Mus musculus with 12 samples.

Results

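The genes described here encode the TGF-β ligands (Tgfb1, Tgfb2 and Tgfb3), the latent TGF-β binding proteins (Ltbp1, Ltbp2, Ltbp3 and Ltbp4) and the cell surface carrier of latent TGF-β, Lrrc32. They were taken as a list of 8 named genes out of 25514 genes with a mouse symbol, and all 8 passed the filter on low counts that left 12971 genes for testing. RNA was measured in 12 libraries, 3 for each of 4 groups of conditionally immortalized proximal tubule (PT) cells from male mice. All cells carried H2ts6, a T antigen of the Immorto-mouse that is stable only at the lower temperature. They grew at 33°C with interferon gamma in the medium and were moved to 37°C 5 days before the experiment. The study's methods state that interferon gamma was then removed. TβRII flox/flox PT cells (genotype H2ts6;Tgfbr2fl/fl) had loxP sites in both copies of Tgfbr2, which encodes the TGF-β type II receptor, and are called floxed cells below; TβRII-/- cells (H2ts6;Tgfbr2-/-) were derived from them in culture with Cre recombinase delivered by adenovirus. Each was sequenced untreated in its culture medium and after 24 h of H2O2 in serum-free medium, at a dose given as 200 mM in the labels and as 200 μM in the methods. There was 1 line per genotype, so the effect of the deletion and that of any other change between the 2 lines cannot be told apart, and neither can those of H2O2 and of serum withdrawal. The study's methods speak of independent experiments or biological replicates for its in vitro work in general, but the labels do not tie the libraries of a group to separate cultures, so p-values measure the spread between these libraries, which may be technical.

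TGF-β is made as a precursor that is cut by furin-like proteases and stays bound to its own propeptide, which keeps the ligand latent. In most cells the latent complex is joined by a disulfide bond to an Ltbp before secretion, and the Ltbp anchors it to fibronectin and fibrillin in the extracellular matrix. Integrins, thrombospondin and proteases release the active ligand, which then assembles the type II and type I receptors. Ltbp1 and Ltbp3 carry the ligands readily, Ltbp4 carries mainly the Tgfb1 product, and Ltbp2 resembles them in domains but does not bind latent TGF-β. Lrrc32 holds the latent complex on the surface of platelets and regulatory T cells. In the kidney, tubular TGF-β is known both for its part in fibrosis and for keeping epithelial cells differentiated.

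Gene totals ran from 15870155 to 20857618 counts per library. Values are given as CPM (counts in proportion to a normalized library size of 1000000), and levels of different genes are compared only as CPM per kb of the transcript used. Tgfbr2 itself was at 484 ± 48.6 CPM (SD, n = 3) in untreated floxed cells and 381 ± 12.7 in untreated TβRII-/- cells. With H2O2 it was at 786 ± 18.9 and 416 ± 5.63 CPM in the same order. The count covers the whole transcript, so it does not check the floxed exon. According to the study's methods, the deletion was checked by immunoblotting and by RNAseq. Of 13 proximal tubule markers 7 exceeded 3 counts in at least 1 library, led by Lrp2 and Aqp1, whereas Slc34a1, Slc22a6, Slc22a8, Slc27a2, Hnf4a and Miox stayed at 3 counts or fewer in every library. The label of proximal tubule cell therefore rests here on part of its markers. The 13 markers summed to 1269 to 1614 CPM in untreated floxed and 868 to 927 CPM in untreated TβRII-/- libraries. With H2O2 they summed to 1781 to 1945 and 914 to 994 CPM. Nearly all of it was Lrp2 and Aqp1. In floxed cells Aqp1 went from 5781 to 7024 counts untreated to 12562 to 14444 with H2O2. Lrp2 had 14323 to 19333 and 14251 to 18181 counts there, and Ggt1 fell from 56 to 86 to 16 to 26. Untreated TβRII-/- libraries had 6 to 9 counts of Ggt1 and 0 of Slc5a2, which had 6 to 18 in untreated floxed libraries. The part of these differences in the results was not tested. Untreated floxed replicates 1 and 3 differed most among replicate pairs (chi-square per gene of 12.1, against 3.52 to 7.94 for the others), and replicate 3 had the lowest CPM of its group for all 8 genes.

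Promoter sequences of 3 genes are shown, because Ltbp1 and Ltbp2 differed most between genotypes and Tgfb2 fell with H2O2 in both lines. They are RefSeq windows of GRCm38.p6, written 5′ to 3′ on the strand of the gene and taken from before an annotated transcript start, which need not be the outer end of the gene, with matches to the motifs named below in capitals. The Ltbp1 sequences lie at chr17:75005279-75005479 and chr17:75178531-75178780 on the plus strand, upstream of its long and its short transcripts. The last 49 bases of the upstream Ltbp1 window and the last 67 of the Ltbp2 window lie inside the bounds of the RefSeq gene, and the last 108 of the Tgfb2 window belong to annotated transcripts; these are left out. What remains is chr12:84876559-84876741 for Ltbp2 and chr1:186706098-186706239 for Tgfb2, both on the minus strand. The downstream Ltbp1 window and that of Tgfb2 lie inside the bounds of their genes, which have other starts farther upstream.
Ltbp1, upstream start: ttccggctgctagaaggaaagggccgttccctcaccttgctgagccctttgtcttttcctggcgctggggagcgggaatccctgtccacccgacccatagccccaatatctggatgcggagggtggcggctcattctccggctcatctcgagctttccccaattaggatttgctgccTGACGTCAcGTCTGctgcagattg
Ltbp1, downstream start: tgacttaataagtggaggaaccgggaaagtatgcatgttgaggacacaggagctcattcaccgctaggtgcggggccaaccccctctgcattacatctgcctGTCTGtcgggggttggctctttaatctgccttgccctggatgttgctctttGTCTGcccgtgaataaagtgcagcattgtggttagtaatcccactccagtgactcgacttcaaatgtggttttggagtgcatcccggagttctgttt
Ltbp2: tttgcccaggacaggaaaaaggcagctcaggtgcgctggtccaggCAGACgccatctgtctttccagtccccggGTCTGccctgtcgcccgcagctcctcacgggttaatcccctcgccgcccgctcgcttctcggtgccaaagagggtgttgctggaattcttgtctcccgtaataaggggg
Tgfb2: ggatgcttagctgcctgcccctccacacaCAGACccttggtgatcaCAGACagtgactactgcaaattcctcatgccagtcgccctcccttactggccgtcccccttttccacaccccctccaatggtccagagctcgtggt

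The windows of 250 bases before the start were searched on both strands for 6 motifs, and RefSeq had 9 such windows for 6 of the 8 genes, all but Tgfb3 and Lrrc32. CAGAC, the core of the CAGA box that Smad proteins bind, had 1 match each in the upstream Ltbp1 window and the Ltbp3 window and 2 each in the downstream Ltbp1 window and those of Ltbp2 and Tgfb2. It was present in 42.2% of all 32536 windows. The upstream Ltbp1 window also held TGACGTCA, the cyclic AMP response element, which 1.56% of windows had. In the Tgfb2 window the part not printed held CACGTG, an E box found in 6.04% of windows. That part also held the TATA box searched for, spelled TATAAA and found in 12.3% of windows. TGACNNNGC, the antioxidant response element, was in 10.2% of windows and in 1 window of Ltbp4, and TGANTCA, the AP-1 element, was in 6.73% and in none of these windows. The Tgfb1 window held none of the 6 motifs. No match overlapped another, and each is a match of letters only.

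Deletion of TβRII was accompanied by lower mRNA of the ligands and of all 4 Ltbp genes. In untreated cells 7 of the 8 genes were called at an adjusted p under 0.05 (edgeR quasi-likelihood test, Benjamini-Hochberg over all genes tested), all 7 of them lower in TβRII-/- cells, where 64.7% of all genes were called and 31.4% were called lower. The libraries of the 2 genotypes did not overlap for these 7, as for 65.3% of all genes. With a fold change of at least 1.5 as well, 5 remained, all of them lower (Tgfb3 and the 4 Ltbp genes), against 28.0% of all genes in either direction and 11.8% lower. With H2O2 in both lines 7 genes were again called, all lower, against a background of 66.4% called and 31.3% called lower. The untreated and the H2O2 comparison of genotypes share no libraries. They compare the same lines, however, and were fitted together with a spread estimate shared by all groups. The median log2 fold change of all genes was within 0.02 of 0 in every comparison.

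H2O2 split the family. In floxed cells 7 of 8 genes changed, where 41.6% of all genes were called. Tgfb1, Tgfb3, Ltbp3 and Ltbp4 rose (4 of 8, against 21.0% of all genes), whereas Tgfb2, Ltbp1 and Ltbp2 fell (3 of 8, against 20.5%). Treated and untreated libraries did not overlap for these 7, as for 47.4% of all genes. A fold change of at least 1.5 was passed by 5 of them, namely Tgfb1, Tgfb2, Ltbp1, Ltbp2 and Ltbp3, against 8.24% of all genes. In TβRII-/- cells 5 of 8 were called against a background of 39.6%, with Tgfb1, Ltbp3 and Ltbp4 higher (background 20.5%) and Tgfb2 and Lrrc32 lower (background 19.1%); DESeq2 called 3, without Ltbp4 and Lrrc32. The H2O2 effects of the 2 lines differed at an adjusted p under 0.05 for Ltbp1 alone among the 8, and 10.2% of all genes passed that test.

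**Figure D1:**
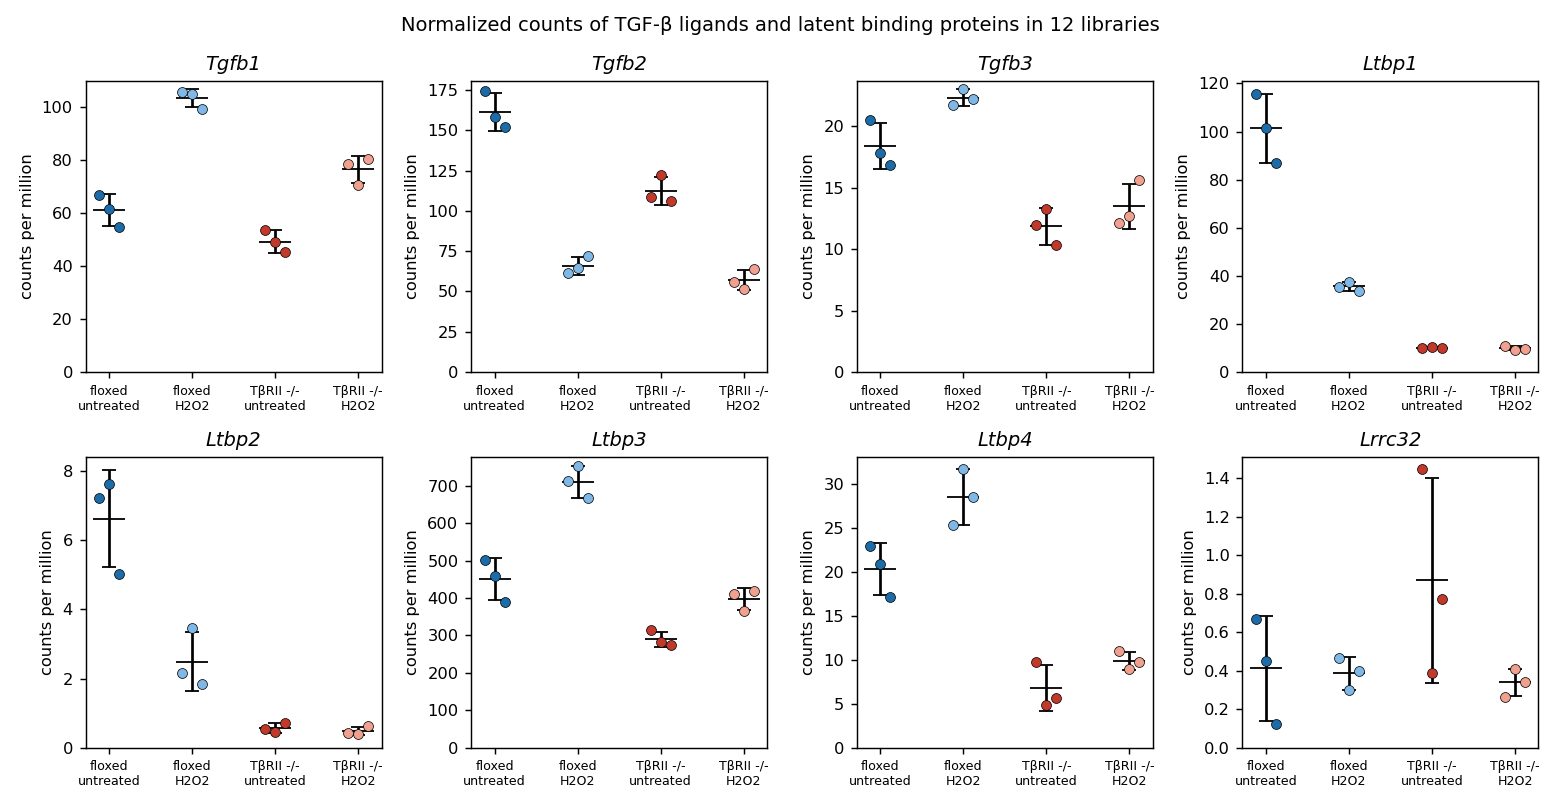
Normalized counts (CPM) of the 8 genes in each of the 12 libraries (points), with group mean and SD (bars, n = 3) and a separate linear axis from 0 for each gene. Tgfb1 and Tgfb2 moved in opposite directions with H2O2 in both lines, and Ltbp1 was near 10 CPM in all 6 TβRII-/- libraries.

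Tgfb1 (chr7:25687002-25705077, GRCm38.p6), the ligand most often studied in renal fibrosis, was counted at 66.6, 61.6 and 54.7 CPM in untreated floxed cells and at 53.5, 48.9 and 45.1 CPM in untreated TβRII-/- cells. H2O2 took it to 106, 105 and 99.3 CPM in the former and 78.5, 70.6 and 80.2 CPM in the latter. The groups compared did not overlap, and the order of genotypes was the same with and without H2O2. The log2 fold change for H2O2 was 0.76 ± 0.07 (SE; adjusted p = 3.68e-10) in floxed cells and 0.64 ± 0.07 (adjusted p = 2.34e-08) in TβRII-/- cells. Between genotypes it was -0.31 ± 0.07 untreated (adjusted p = 0.000498) and -0.44 ± 0.07 with H2O2 (adjusted p = 1.87e-06). The difference between the 2 H2O2 effects was -0.12, with a 95% interval from -0.32 to 0.07.

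Tgfb2 (chr1:186622787-186709697), which requires the coreceptor Tgfbr3 for tight binding to the type II receptor, moved the other way. Untreated floxed cells had 174, 158 and 152 CPM and untreated TβRII-/- cells 109, 123 and 106 CPM. With H2O2 the values were 61.2, 64.7 and 72.0 CPM in floxed cells and 55.8, 51.7 and 64.0 CPM in TβRII-/- cells. Every H2O2 library lay below every untreated one, whereas the genotypes overlapped after H2O2. The log2 fold change with H2O2 was -1.29 ± 0.08 (adjusted p = 3.96e-15) in floxed cells and -0.98 ± 0.08 (adjusted p = 5.81e-12) in TβRII-/- cells. Between untreated genotypes it was -0.52 ± 0.07 (adjusted p = 1.72e-07). With H2O2 the genotypes differed by -0.21 ± 0.08 (adjusted p = 0.0191), a call that was lost without floxed H2O2 replicate 3 (adjusted p = 0.0747) and without TβRII-/- H2O2 replicate 1 (0.0643) or 2 (-0.14, adjusted p = 0.158). The difference of the H2O2 effects was 0.31 ± 0.11 (adjusted p = 0.0536, 95% interval from 0.11 to 0.52); its adjusted p ranged from 0.0123 to 0.200 over the alternatives. It passed without a filter on low counts (0.0123), without untreated floxed replicate 3 (0.0371), without untreated TβRII-/- replicate 2 (0.0294) and without TβRII-/- H2O2 replicate 2 (0.0283).

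Tgfb3 (chr12:86056743-86079041), the ligand known for palate fusion and scarless repair, was the least abundant of the ligands. It had 20.5, 17.8 and 16.9 CPM in untreated floxed cells and 11.9, 13.3 and 10.3 CPM in untreated TβRII-/- cells. H2O2 gave 21.7, 23.04 and 22.2 CPM and 12.1, 12.7 and 15.6 CPM. All TβRII-/- libraries lay below all floxed libraries, by a log2 fold change of -0.64 ± 0.11 untreated (adjusted p = 5.70e-06) and -0.73 ± 0.10 with H2O2 (adjusted p = 1.92e-07). The rise with H2O2 in floxed cells was 0.28 ± 0.10 (adjusted p = 0.0269). That call was lost without untreated floxed replicate 2 (adjusted p = 0.0783) or 3 (0.115), without floxed H2O2 replicate 2 (0.0857) and with counts summed over transcripts (0.0886). Its log2 fold change in TβRII-/- cells was 0.18 (adjusted p = 0.198).

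**Figure D2:**
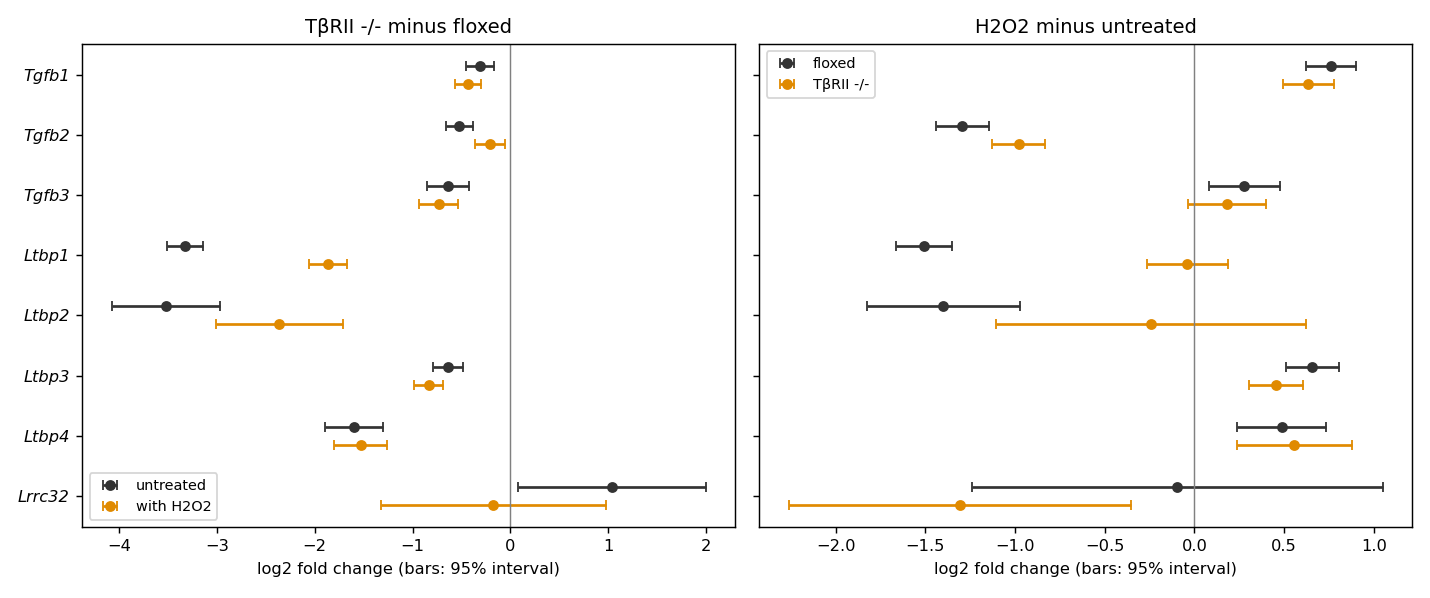
Log2 fold changes of the 8 genes between genotypes (left) and with H2O2 (right), each point a fitted value over 3 libraries per group with bars of the 95% interval. The 7 genes above Lrrc32 lie left of 0 between genotypes, and the H2O2 values of Ltbp1 in the 2 lines are far apart, at -1.51 and -0.04.

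The ligand mRNAs were close in sum but different in makeup after H2O2. Per kb, their sum was 62.8 ± 5.31 CPM (SD, n = 3) in untreated floxed cells and 64.6 ± 0.620 after H2O2 (two-sided exact permutation test, p = 0.7). The sum in TβRII-/- cells was 46.6 ± 2.98 untreated and 48.7 ± 3.70 after H2O2 (exact p = 0.4). The share of Tgfb2 in this sum was 48.8%, 48.5% and 50.3% in untreated floxed libraries and 18.1%, 19.0% and 21.5% after H2O2. In TβRII-/- libraries it was 43.5%, 48.1% and 47.1% untreated and 21.8%, 22.1% and 23.4% after H2O2. Tgfb1 thus made up 43.8% and 47.7% of the ligand mRNA untreated, and 72.1% and 70.9% after H2O2, in floxed and TβRII-/- cells respectively. The treated and untreated shares of both genes did not overlap in either line, and each exact permutation test gave p = 0.1, the smallest that 3 against 3 allows. Tgfb3 stayed a minor part, with mean shares between 6.11% and 8.32%, or between 3.19% and 4.72% with counts summed over transcripts.

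**Figure D3:**
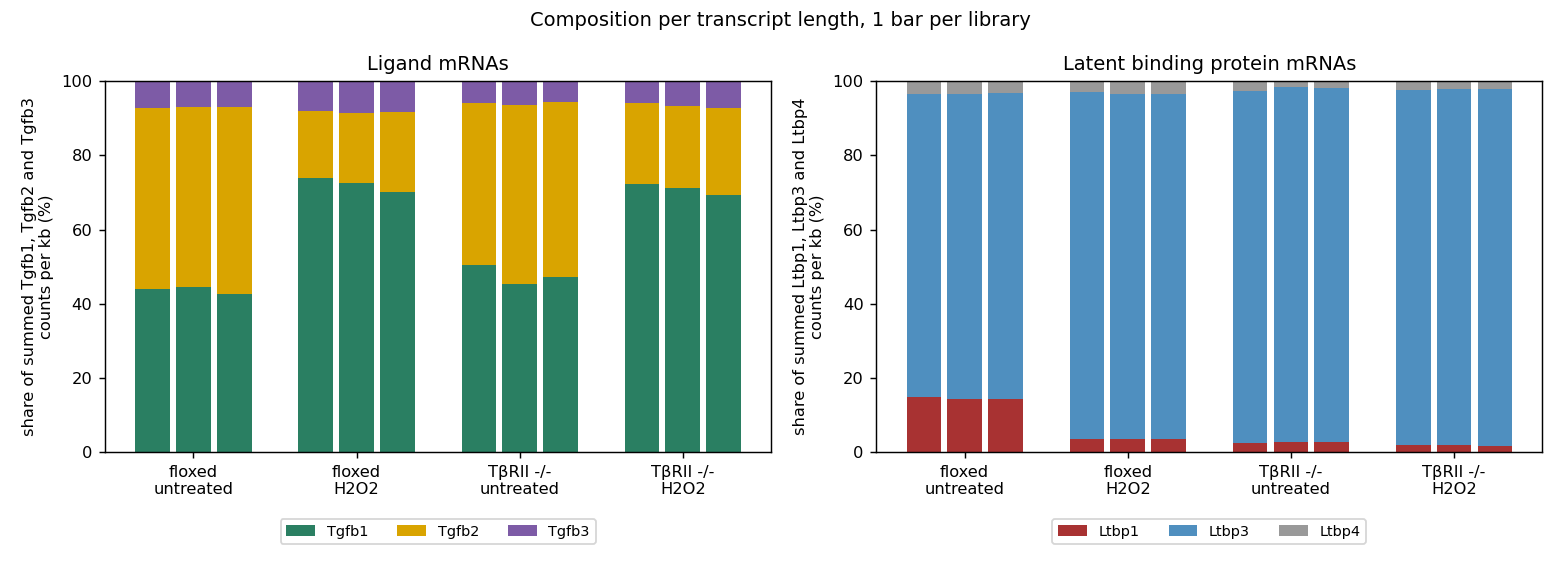
Left, share of Tgfb1, Tgfb2 and Tgfb3 in their summed counts per kb; right, share of Ltbp1, Ltbp3 and Ltbp4 in theirs, in percent, 1 stacked bar per library. Tgfb1 was near 72% of ligand mRNA in floxed cells after H2O2, and Ltbp1 was visible mainly in untreated floxed cells, at 14.5%.

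Ltbp1 (chr17:75005480-75392512), which links the latent complex to fibronectin and fibrillin, showed the strongest change among the abundant members. Its level was 115, 102 and 86.7 CPM in untreated floxed cells. The 3 untreated TβRII-/- libraries had 9.88, 10.3 and 9.99 CPM. After H2O2 the values were 35.5, 37.6 and 33.7 CPM in floxed cells and 10.7, 9.11 and 9.57 CPM in TβRII-/- cells. The TβRII-/- values before and after H2O2 were interleaved, and every one of them lay below every floxed value. Untreated TβRII-/- cells were 10.1-fold lower (log2 fold change -3.33 ± 0.09, adjusted p = 1.04e-24), and 3.64-fold lower with H2O2 (-1.86 ± 0.10, adjusted p = 2.87e-17). In floxed cells Ltbp1 fell by 1.51 ± 0.08 with H2O2 on the log2 scale (adjusted p = 5.43e-16). In TβRII-/- cells the change was -0.04 ± 0.12, with a 95% interval from -0.27 to 0.19 (adjusted p = 0.809). The 2 H2O2 effects differed by 1.47 ± 0.14 (adjusted p = 2.23e-08), and without each library in turn by 1.33 to 1.55.

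The Ltbp1 gene has transcripts from an upstream and from a downstream start, whose windows are printed above, and the shorter ones share most exons with the longer. The longest transcript, from the upstream start (ENSMUST00000001927, 6715 bases, 1371 of them before the downstream start), held 1905, 1584 and 1399 counts in untreated floxed cells and 164, 185 and 181 in untreated TβRII-/- cells. The transcript from the downstream start (ENSMUST00000112516, 5571 bases) held 1811, 1504 and 1317 and 149, 167 and 147 counts, so that 94.8% and 87.4% as many counts fell on it as on the longest. The counts of the longest transcript beyond those of the downstream one summed to 256 in untreated floxed, 67 in untreated TβRII-/-, 105 in H2O2-treated floxed and 57 in H2O2-treated TβRII-/- cells. These counts were also lower in TβRII-/- cells and after H2O2 in floxed cells, but they are few and were not tested. A short transcript that ends before the downstream start (ENSMUST00000234008, 823 bases) held at most 16 counts in any library. Most Ltbp1 counts in all 4 groups thus fell on exons that both starts share, and a read in those exons does not tell from which start it came.

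**Figure D4:**
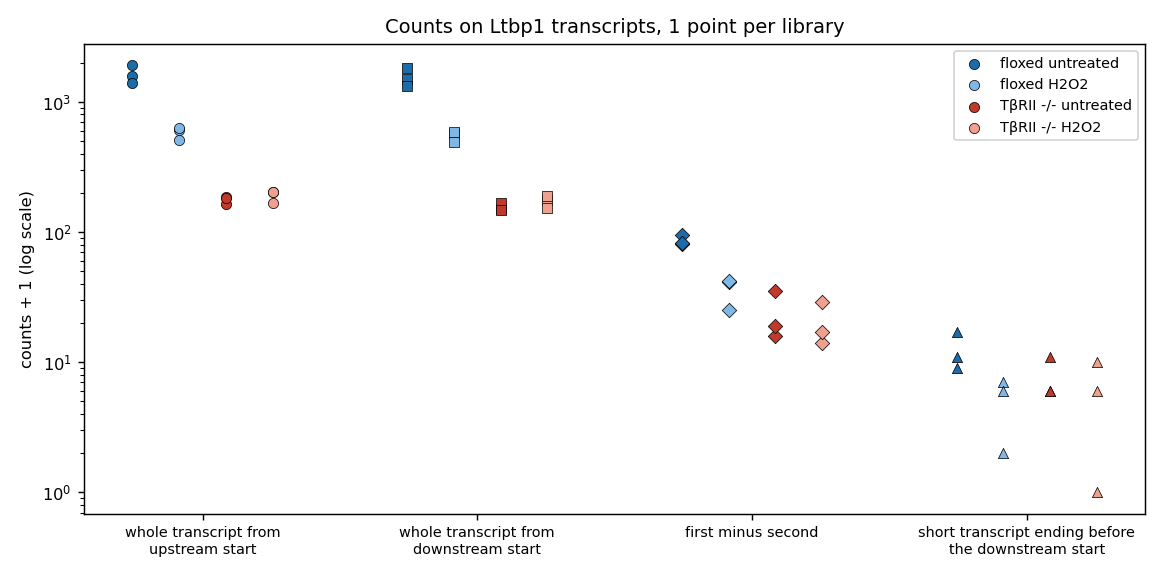
Counts on Ltbp1 transcripts (log axis, 1 added to each), 1 point per library in 4 groups: the longest transcript from the upstream start, the transcript from the downstream start, the first minus the second, and a short transcript before the downstream start. The first 2 columns show nearly the same counts, and the last stays at or below 16 counts in all 12 libraries.

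Ltbp2 (chr12:84783212-84876558), a microfibril protein of elastic fibres and of the ciliary zonule, was much less abundant and had the same order of groups. Raw counts were 119, 119 and 81 in untreated floxed cells and 9, 8 and 13 in untreated TβRII-/- cells. H2O2 gave 37, 58 and 28 counts in floxed cells and 8, 9 and 11 in TβRII-/- cells. The genotypes did not overlap, and the 6 TβRII-/- libraries had 8 to 13 counts with or without H2O2. The level was 11.5-fold lower in untreated TβRII-/- cells (log2 fold change -3.52 ± 0.28, adjusted p = 1.08e-12) and also lower with H2O2 (-2.36 ± 0.33, adjusted p = 1.85e-07). With H2O2 it fell by 1.40 ± 0.22 in floxed cells (adjusted p = 4.92e-06). The change in TβRII-/- cells was -0.24, with a 95% interval from -1.11 to 0.62, and the difference between the H2O2 effects was 1.16 ± 0.50 (adjusted p = 0.149).

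Ltbp3 (chr19:5740900-5758536), which is known for bone and tooth phenotypes when lost, was the most abundant member per kb in all 4 groups. Its level was 501, 460 and 390 CPM in untreated floxed cells and 313, 281 and 274 CPM in untreated TβRII-/- cells. H2O2 took it to 711, 753 and 668 CPM and to 411, 364 and 419 CPM. None of these groups overlapped within a line or within a treatment. It rose with H2O2 by 0.66 ± 0.08 on the log2 scale in floxed cells (adjusted p = 3.02e-08) and by 0.46 ± 0.08 in TβRII-/- cells (adjusted p = 1.65e-05). Between genotypes the log2 fold change was -0.64 ± 0.08 untreated (adjusted p = 1.25e-08) and -0.84 ± 0.08 with H2O2 (adjusted p = 2.54e-11). The H2O2 effects differed by -0.20 (adjusted p = 0.264), a difference that passed only without untreated floxed replicate 1 (-0.31, adjusted p = 0.0347).

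Ltbp4 (chr7:27305140-27339720), which also takes part in the assembly of elastic fibres, had 22.9, 20.8 and 17.2 CPM in untreated floxed cells and 9.70, 4.85 and 5.68 CPM in untreated TβRII-/- cells. After H2O2 the values were 25.3, 31.7 and 28.5 CPM in floxed cells and 10.96, 8.93 and 9.74 CPM in TβRII-/- cells. Replicate 1 of untreated TβRII-/- cells stood above the other two and overlapped the H2O2 libraries of its line. The level in TβRII-/- cells was 3.03-fold lower untreated (log2 fold change -1.60 ± 0.15, adjusted p = 7.46e-11) and also lower with H2O2 (-1.53 ± 0.14, adjusted p = 1.42e-11). The rise with H2O2 was 0.49 ± 0.13 in floxed cells (adjusted p = 0.00256) and 0.56 ± 0.16 in TβRII-/- cells (adjusted p = 0.00740). Both calls were lost in DESeq2 (adjusted p = 0.0748 and 0.0650). The second was also lost without untreated TβRII-/- replicate 2 (0.37, adjusted p = 0.0939) or 3 (0.45, adjusted p = 0.0547), and was 0.90 without replicate 1 (adjusted p = 2.12e-05).

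Lrrc32 (chr7:98489305-98501831), also known as GARP, was near the limit of detection. It had 11, 7 and 2 counts in untreated floxed, 24, 7 and 14 in untreated TβRII-/-, 8, 5 and 6 in H2O2-treated floxed and 5, 9 and 6 in H2O2-treated TβRII-/- libraries. All groups overlapped. Untreated genotypes differed by a log2 fold change of 1.04 ± 0.49 (adjusted p = 0.0638), which passed without untreated floxed replicate 1 (1.57, adjusted p = 0.0236) and without untreated TβRII-/- replicate 2 (1.39, adjusted p = 0.0144). In TβRII-/- cells its level with H2O2 was lower than without (log2 fold change -1.31 ± 0.49, adjusted p = 0.0323). Without untreated TβRII-/- replicate 1, the library with 24 counts, the value was -0.75 (adjusted p = 0.305), and the call was also lost without each TβRII-/- H2O2 library (0.105, 0.0507 and 0.0732), with DESeq2 (0.0575) and with summed transcripts (0.0544). Of the markers of platelets and regulatory T cells, where Lrrc32 is known to act, Cd3e was at 0 and Gp9 and Pf4 were at 3 counts or fewer in every library. The summed level of the 5 markers was 1.03 to 1.94 CPM in untreated floxed, 3.53 to 4.52 CPM in untreated TβRII-/-, 2.11 to 3.27 CPM in H2O2-treated floxed and 4.73 to 5.62 CPM in H2O2-treated TβRII-/- cells. Nearly all of it was Itga2b, a platelet integrin subunit, at 14 to 25, 59 to 72, 31 to 52 and 82 to 111 counts in the same order, while Foxp3 had 1 to 7 counts per library. The sum was thus higher with H2O2 in TβRII-/- cells, where Lrrc32 was called lower, and its part in the result was not tested.

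Ranked by CPM per kb, Ltbp3 led in each group, at 85.02 ± 10.6 in untreated floxed cells and 134 ± 8.03 after H2O2. Tgfb2 (30.9 ± 2.22) and Tgfb1 (27.5 ± 2.71) followed in untreated floxed cells with overlapping ranges, then Ltbp1 (15.1 ± 2.14), Tgfb3 (4.43 ± 0.453), Ltbp4 (3.47 ± 0.497), Ltbp2 (0.978 ± 0.207) and Lrrc32 (0.0903 ± 0.0597), none of which overlapped its neighbour. In untreated TβRII-/- cells Tgfb1 (22.2 ± 1.90) and Tgfb2 (21.5 ± 1.68) overlapped as well, and Ltbp1 stood below Tgfb3 at 1.499 ± 0.0342, overlapping Ltbp4 at 1.15 ± 0.443. After H2O2 Tgfb1 was above Tgfb2 without overlap in both lines, at 46.6 ± 1.54 against 12.6 ± 1.06 and at 34.5 ± 2.32 against 10.9 ± 1.19. Tgfb3 (5.37 ± 0.164), Ltbp1 (5.30 ± 0.289) and Ltbp4 (4.86 ± 0.542) were not separated in H2O2-treated floxed cells. In H2O2-treated TβRII-/- cells Ltbp4 (1.69 ± 0.174) overlapped Ltbp1 (1.46 ± 0.126), and Lrrc32 overlapped Ltbp2.

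The carrier mRNAs were set against the ligand mRNAs by the sum of Ltbp1, Ltbp3 and Ltbp4 per kb over that of the ligands. That ratio was 1.64 ± 0.0831 in untreated floxed cells and 1.23 ± 0.0848 in untreated TβRII-/- cells, and 2.23 ± 0.112 and 1.61 ± 0.0396 with H2O2 (SD, n = 3 each). No pair of groups compared overlapped, and each exact permutation test gave p = 0.1, the smallest possible. Within the carrier sum, Ltbp1 made up 14.5 ± 0.283% in untreated floxed cells, 3.67 ± 0.0184% after H2O2, 2.63 ± 0.228% in untreated TβRII-/- cells and 1.87 ± 0.123% after H2O2. Ltbp3 held the rest of it almost alone, at 82.1%, 93.0%, 95.4% and 96.0% in the same order. Summing counts over all transcripts instead of using 1 per gene raised the ratio to between 2.75 and 5.41.

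Other genes of the pathway were followed in 6 lists with 53 genes, 46 of them tested. Their counts stand against 31.4% of all genes called lower and 33.3% called higher in untreated TβRII-/- cells, 21.0% higher and 20.5% lower with H2O2 in floxed cells, and 20.5% higher and 19.1% lower with H2O2 in TβRII-/- cells. In the list for storage in the matrix, 6 of 8 tested genes were lower and 1 higher in untreated TβRII-/- cells (all genes 31.4% and 33.3%), with a median log2 fold change of -2.29 against 0.01 for all genes. Fn1, the fibronectin to which Ltbp1 attaches, fell from 5936 ± 997 to 529 ± 26.2 CPM (log2 fold change -3.49, adjusted p = 1.83e-24), and Mfap2, a microfibril glycoprotein, fell from 1.54 ± 0.297 to 0.133 ± 0.0289 CPM (-3.46, adjusted p = 4.30e-08). Fbn2, a fibrillin of developing microfibrils, rose from 0.453 ± 0.187 to 4.11 ± 0.907 CPM (3.16, adjusted p = 2.85e-11). H2O2 in floxed cells, which lowered Ltbp1 and Ltbp2, raised 3 of the 8 storage genes (all genes 21.0%) and lowered 1 (all genes 20.5%), namely Tgm2, the transglutaminase that crosslinks Ltbp1 to matrix (-0.74, adjusted p = 4.28e-12). Fn1 was at 6170 CPM there, close to its untreated level. H2O2 in TβRII-/- cells raised 2 (Fbn2 and Efemp2) and lowered Fn1 (-0.65, adjusted p = 1.43e-06).

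Among genes of proteolytic processing and activation, 8 of 12 were lower and 3 higher in untreated TβRII-/- cells (all genes 31.4% and 33.3%; median log2 fold change -1.05). Tll1, a tolloid protease that cleaves Ltbp1, fell from 18.7 ± 3.10 to 0.684 ± 0.144 CPM (-4.76, adjusted p = 1.19e-19) and Mmp2, a gelatinase, from 1009 ± 119 to 57.9 ± 3.44 CPM (-4.12, adjusted p = 4.01e-28). The plasminogen activators rose, Plau by 1.53 (adjusted p = 1.68e-19) and Plat by 1.10 (adjusted p = 9.68e-16) on the log2 scale. With H2O2, 5 of the 12 genes rose and 2 fell in floxed cells (all genes 21.0% and 20.5%). Those that fell were Tll1 (-1.86, adjusted p = 5.50e-12) and the proprotein convertase Pcsk6 (-0.65, adjusted p = 1.51e-06). In TβRII-/- cells 2 rose (Bmp1 and Plau) and 1 fell, Pcsk6 (-1.88, adjusted p = 6.24e-07) (all genes 20.5% and 19.1%).

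Integrin and thrombospondin genes that release latent TGF-β gave 5 lower and 2 higher of 7 in untreated TβRII-/- cells (all genes 31.4% and 33.3%; median -0.30). The largest rise was that of Itgb3 (log2 fold change 1.81, adjusted p = 9.66e-10) and the largest fall that of Itgb1 (-1.05, adjusted p = 1.51e-14). Itgb6 and Itgb8, which encode partners of Itgav that bind the latent complex, moved in opposite directions. Itgb6 fell from 99.5 ± 11.5 to 50.6 ± 3.32 CPM (-0.98, adjusted p = 1.85e-13), whereas Itgb8 rose from 6.64 ± 0.373 to 15.4 ± 1.13 CPM (1.21, adjusted p = 6.96e-12). H2O2 in floxed cells had the same pair of directions, with Itgb6 at -0.60 (adjusted p = 4.60e-08) and Itgb8 at 1.40 (adjusted p = 1.54e-12), and 4 of the 7 genes rose there and 1 fell (all genes 21.0% and 20.5%). In TβRII-/- cells Itgb8 rose by 0.85 (adjusted p = 1.57e-09) and Itgb1 and Thbs1 fell.

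Receptors and coreceptors gave 4 lower and 1 higher of 6 in untreated TβRII-/- cells (all genes 31.4% and 33.3%), with a median of -0.32. The 4 lower genes included Tgfbr2 itself, the gene that Cre targeted, so this count is not independent of the deletion. Tgfbr3, the coreceptor for Tgfb2, rose from 52.2 ± 5.65 to 103 ± 6.32 CPM (0.98, adjusted p = 6.97e-14) and Cd109, a coreceptor that limits signaling, fell by 0.80 (adjusted p = 7.99e-13). Tgfbr3 also rose with H2O2, by 0.64 in floxed and 0.30 in TβRII-/- cells (adjusted p = 1.31e-08 and 0.000510), while Tgfb2 fell in both. Of the 3 tested binders of the free ligand, Vasn fell from 122 to 91.4 CPM (-0.42, adjusted p = 1.83e-05) and Fmod fell from 0.621 to 0.131 CPM (-2.17, adjusted p = 0.00288). Dcn, at 0.0843 and 0.317 CPM, was called higher (adjusted p = 0.0432). It had only 1, 3 and 0 counts in untreated floxed and 2, 7 and 8 in untreated TβRII-/- libraries, which overlapped.

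The list of genes that TGF-β induces in many cells had 7 of 10 lower and 2 higher in untreated TβRII-/- cells (all genes 31.4% and 33.3%), with a median of -1.49. Pmepa1, a feedback inhibitor of Smad signaling, fell from 210 to 16.99 CPM (-3.63, adjusted p = 5.32e-26). Tgfbi ran against the name of the list and rose from 0.226 to 2.39 CPM (3.35, adjusted p = 2.83e-09), as did Klf10 (0.22, adjusted p = 0.00578). With H2O2, 1 of the 10 was higher and 3 were lower in floxed cells (all genes 21.0% and 20.5%), and 4 were higher and 2 lower in TβRII-/- cells (20.5% and 19.1%). Ccn2 fell in both lines, with log2 fold changes of -1.47 (adjusted p = 3.38e-17) and -1.35 (adjusted p = 7.91e-16). Ltbp1 and Ltbp2 were called lower with H2O2 in floxed cells and not in TβRII-/- cells, and the test of that difference passed for Ltbp1.

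Markers of other cell types moved with some of these results. The 7 fibroblast markers summed to 322 to 400 CPM in untreated floxed and 152 to 176 CPM in H2O2-treated floxed libraries. They summed to 10.9 to 13.9 CPM in untreated TβRII-/- and 7.16 to 8.48 CPM in H2O2-treated TβRII-/- libraries. The group means of Ltbp1 and Ltbp2 had the same order, but their untreated and H2O2-treated TβRII-/- libraries overlapped. Nearly all of the fibroblast sum was Postn, a matricellular protein that TGF-β also induces. Postn had 5142 to 6525 counts in untreated floxed and 171 to 222 in untreated TβRII-/- libraries. Lum was at 0, Col1a2 at 3 counts or fewer, Pdgfra at 4 or fewer and Pdgfrb at 24 or fewer in every library. Col1a1, Dcn and Pdgfrb did not share that order. Col1a1 had 34 to 47 counts in untreated and 49 to 61 in H2O2-treated floxed libraries, and Pdgfrb 11 to 19 and 17 to 24. In TβRII-/- libraries Col1a1 had 10 to 19 counts untreated and 23 to 25 with H2O2. Dcn had 0 to 3 counts in untreated floxed and 14 to 24 in H2O2-treated TβRII-/- libraries. The 6 macrophage and leukocyte markers summed to 52.2 to 67.4 CPM over all libraries, with Adgre1 at 0. Nearly all of it was Csf1r, at 686 to 1007 counts, and Cd68. Cd68 had 118 to 135 counts in untreated floxed and 215 to 258 in untreated TβRII-/- libraries, and 120 to 141 and 241 to 317 with H2O2. Csf1r had 713 to 888 counts in untreated floxed and 686 to 756 in untreated TβRII-/- libraries. The 5 endothelial markers summed to 7.31 to 7.94 CPM in untreated floxed and 26.8 to 33.7 CPM in untreated TβRII-/- libraries, and to 1.31 to 1.52 and 2.27 to 3.78 CPM with H2O2. Nearly all of it was Kdr, a VEGF receptor, with 115 to 126 counts in untreated floxed and 474 to 558 in untreated TβRII-/- libraries, whereas Cdh5 had 1 to 4 counts in the former and 0 in the latter and Pecam1 and Emcn were at 3 counts or fewer. In bulk RNA fewer cells of a kind and less RNA per cell cannot be told apart, and the part of such cells in the results was not tested.

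For each member the 12 tested genes on either side were taken, and their median log2 fold change was set against that of all genes; it lay within -0.29 to 0.17 of it for every member and comparison. In untreated cells the neighbours of Ltbp1 lay at -0.16, those of Ltbp2 at 0.03, those of Ltbp4 at -0.06 and those of Tgfb3 at 0.02 relative to all genes, where the members themselves lay at -3.34, -3.53, -1.61 and -0.64. Around Ltbp1, 17 of 24 neighbours were below the median of all genes, and so were 17 of 24 around Lrrc32, whose neighbours lay at -0.22. With H2O2 in TβRII-/- cells 2 members lay close to their neighbours. These were Tgfb3, at 0.16 with neighbours at 0.17, and Ltbp1, at -0.06 with neighbours at -0.06.

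The genes whose levels ran most like each ligand over the 12 libraries were found among 10306 genes by Pearson correlation of log2 CPM, as a description in which the libraries fall into 4 groups. For Tgfb1 they were Fzd7 (r = 0.992), Slc5a3 (0.988) and Tapbp (0.987); Fzd7, a Wnt receptor, was at 118, 96.6, 221 and 147 CPM in untreated floxed, untreated TβRII-/-, H2O2-treated floxed and H2O2-treated TβRII-/- cells. For Tgfb2 they were Tnfaip1 (0.981), Ankrd44 (0.980) and Slc4a4 (0.978). Slc4a4, the basolateral sodium bicarbonate cotransporter of the proximal tubule, was at 85.7, 66.4, 32.6 and 29.7 CPM in the same order. For Tgfb3 they were Poglut3 (0.980), Lpgat1 (0.980) and Atl1 (0.979), of which Poglut3 was at 50.9, 33.3, 63.0 and 37.7 CPM.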

How the data were processed

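The authors trimmed reads with fastp, aligned them with STAR to GRCm38.p6 (GENCODE M23) and counted them with featureCounts; they deposited whole-number counts per transcript, without normalization, in which a read can be counted on several transcripts. Of 106332 transcripts, 104820 matched by identifier to GENCODE M39, giving 25514 genes; the others, 1.22% to 1.28% of counts per library, were left out. Each gene was represented by its transcript with the highest total. Whether counting used strand is not given in the sources used here, so overlapping genes are uncertain. Transcript lengths are those of M39 and coordinates those of a RefSeq table of GRCm38.p6.

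The analysis used edgeR 4.0.16 under R 4.3.3, with TMM normalization, filterByExpr on the groups, glmQLFit and glmQLFTest with a mean per group over all 12 libraries, and 5 contrasts. Genes were called at a Benjamini-Hochberg adjusted p under 0.05 over 12971 genes. Shares and ratios were compared by two-sided exact permutation tests over 3 against 3 libraries. The scripts were tested on simulated data. Alternatives were DESeq2 1.42.0 and its size factors, other filters, sums over transcripts, only the groups compared, another call rule, the replicate number as a block, and each library left out. Gene totals of 15870155 to 20857618 counts limit precision at genes such as Lrrc32.

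Members and gene lists were chosen with earlier results of these data known. Named genes are all members, up to 2 risen and 2 fallen called genes of largest change from each list and contrast, the 3 protein-coding genes with a mean of at least 100 counts most correlated with each ligand, Tgfbr2, and the cell type markers as lists. Protein sequences and in vivo data were not used here. The values of 1 pathway gene that the rule would name are not reported here.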

Additional observations from a re-analysis of the deposited data

Results flagged for a closer look

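The H2O2 effect on Ltbp1 differed between the lines by 1.47 on the log2 scale (TβRII-/- minus floxed; adjusted p = 2.23e-08, edgeR quasi-likelihood test), and this test of the difference is what set it apart from the other 7 genes. Ltbp1 fell by 1.51 with H2O2 in floxed cells, where treated and untreated libraries did not overlap. In TβRII-/- cells Ltbp1 was 9.11 to 10.7 CPM with and 9.88 to 10.3 CPM without H2O2. The value lay between 1.33 and 1.55 over all alternatives. Untreated TβRII-/- libraries held 164 to 185 counts on the transcript used, and the 95% interval of the change with H2O2 in that line was -0.27 to 0.19. The cause of the difference between the lines was not tested.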

How the results depend on the processing

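Of 546 recomputed fold changes of the 8 genes, 514 kept their direction and their side of the threshold, 17 lost a call, 7 gained one and 8 changed sign. No called fold change changed sign; those that did, each without 1 library, were Lrrc32 with H2O2 in floxed cells (0.45 and 0.07, with a range over the left-out libraries of -0.52 to 0.45), Ltbp1 with H2O2 in TβRII-/- cells (-0.11 to 0.015) and the Ltbp4 difference of H2O2 effects (-0.06, -0.12, -0.04, -0.04 and -0.01, range -0.12 to 0.42). The count called with H2O2 in TβRII-/- cells was 5; it was 3 with DESeq2 and 3 with a fold change of at least 1.5, 2 with an unadjusted p under 0.01 and that fold change, and 4 without each library. The count for the difference of H2O2 effects was 2 without a filter on low counts and 1 to 2 without each library, the second gene being Tgfb2 or Ltbp3. Among the pathway lists, the 25 genes called with H2O2 in floxed cells became 15 under each fold change rule, the 18 in TβRII-/- cells became 7, and the 12 for the difference became 4 and 6, and 10 to 19 without each library (19 without untreated floxed replicate 1). The Tgfb2 share, in the order untreated floxed, untreated TβRII-/- and both with H2O2, was 54.7%, 50.3%, 22.5% and 26.1% with summed transcripts and 52.0%, 49.1%, 21.4% and 24.6% with the longest transcript's length; without each library its ranges were 48.6% to 49.5%, 45.3% to 47.6%, 18.5% to 20.3% and 21.9% to 22.8%. The ratio of carrier to ligand mRNA was 3.85, 2.75, 5.41 and 3.80 with summed transcripts, and 1.66 in the last group with the longest lengths. Replicate numbers did not pair the libraries, since deviations of same-numbered libraries correlated between -0.10 and 0.06; with the replicate number as a block, 7, 7, 7, 5 and 1 genes were called in the 5 comparisons, as without it. Leaving out genes under 10 counts in any library removed Lrrc32 and Ltbp2. The cause of these shifts was not tested. Depth limits Lrrc32, at 2 to 24 counts, and Ltbp2 in TβRII-/- cells, at 8 to 13.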

Other observations

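Several pathway genes other than the members also responded to H2O2 differently in the 2 lines, by the same test of the difference (TβRII-/- minus floxed; edgeR quasi-likelihood test, adjusted p over all genes). Tgm2, the transglutaminase that crosslinks Ltbp1 to matrix, had a difference of 0.80 (adjusted p = 4.61e-08): it went from 136 to 81.1 CPM with H2O2 in floxed cells and from 95.7 to 99.5 CPM in TβRII-/- cells. Plat, tissue plasminogen activator, had a difference of -0.96 (adjusted p = 2.23e-08), from 251 to 502 CPM in the former and from 537 to 555 CPM in the latter. Fn1 had a difference of -0.70 (adjusted p = 0.000456). The integrin subunits Itgb6 and Itgb8 differed by 0.49 (adjusted p = 0.00185) and -0.55 (adjusted p = 0.00693), and the receptors Tgfbr1 and Tgfbr2 by -0.37 (adjusted p = 0.00951) and -0.57 (adjusted p = 7.85e-05). Pcsk6, with 7 to 40 counts per TβRII-/- library, had the largest difference in size of the 12, -1.22 (adjusted p = 0.00415). Plau differed by 0.34 (adjusted p = 0.0152), Tgif1 by 0.44 (adjusted p = 0.00237) and Vasn by -0.34 (adjusted p = 0.0356), and Tgfbr3 also passed. Of the 46 pathway genes tested, 12 passed this test, beside 10.2% of all genes.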
